A study of Mus musculus with 18 samples.

Results

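In a chemical reprogramming course of mouse embryonic fibroblasts, 39 genes had their highest RNA level on day 12 (D12). These genes were higher then than on every other sampled day and in both pluripotent lines. They were taken from 20780 protein-coding autosomal genes among the 55401 in the deposited tables. A gene was included if its D12 mean was at least 10 FPKM (fragments per kilobase of exon, scaled to library size, so a level per gene length) and its D12 mean plus 1 was at least 4 times the mean plus 1 of every other group. In all, 43 genes met both thresholds. The 4 left out by name were Havcr1, Zg16, Dppa1 and Zscan4f; the rule leaves out 7 named genes and any gene whose symbol starts with Zscan4, Tcstv, Col or Apo. Because the D12 levels chose these 43 genes, their own comparisons with D12 are given as descriptions without a test. Tests against D12 are given only for other genes of fixed lists, with the 43 left out of the counts. Those lists were chosen with earlier results of these data known.

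RNA was sequenced in 18 libraries of 9 groups, 2 libraries each. D0 was embryonic fibroblasts (MEF) of E13.5 129XOG2 embryos, used at passages 1 to 3 and grown in DMEM with fetal bovine serum. D2, D4, D6, D8, D10 and D12 were the same fibroblasts on those days after the change to a reprogramming medium, whose composition is not given in the sources used here. The riPSC group was induced pluripotent stem cells and the mESC group was the R1 embryonic stem cell line, 1 line from a mouse blastocyst. Both grew on feeder cells in a serum-free medium with LIF, CHIR99021 (a GSK3 inhibitor) and PD0325901 (a MEK inhibitor), and RNA of feeder cells may be part of both. Each day was a bulk culture, in which fewer cells of a type and less RNA per cell cannot be told apart. Nothing in the labels says that the 2 libraries of a group came from separate cultures, so the spread behind every p-value here is that between the deposited libraries and may be technical only.

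Chemical reprogramming turns somatic cells into pluripotent cells with small molecules in place of transcription factor transgenes. Its intermediates are known for expressing regulators of extraembryonic endoderm, the absorptive and secretory epithelium around the early embryo that shares many genes with liver, kidney and gut. Late intermediates are also known for genes of the 2-cell embryo, such as the Zscan4 family. By role, the 39 genes comprised 3 acute phase and inflammation genes, 6 enzymes of glutathione, lipid and small-molecule metabolism, 8 surface proteins, 6 secreted proteins, 8 intracellular scaffold, signalling and trafficking proteins and 3 genes of transcription and the early embryo; 5 were given no role.

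Promoter windows of these genes were searched for the letters of known motifs. RefSeq windows of 300 bases on GRCm38.p6, 250 before to 50 after a transcript start, existed for 27 of the 39 genes (33 windows). The letters TTGCNNAA, a site of the C/EBP family of liver, fat and myeloid transcription factors, stood on either strand in 7 of 33 windows (21.2%) and in 10.8% of all 32851 windows in the table. The 7 genes were Aldh1a1, BC051665, Saa3, Slc34a2, Tbc1d4, Timd2 and Wfdc12. The 4 windows shown, chosen after the matches were known, are those of the neighbours BC053393 and Timd2 on chromosome 11, of the acute phase gene Saa3 and of the phosphate transporter Slc34a2. Each is written 5′ to 3′ on the strand of the gene, and capitals mark every match to TTGCNNAA or its reverse complement. BC053393 (chr11:46571263-46571562, plus strand) held no match, Timd2 (chr11:46707055-46707354, minus strand) held 4, of which 2 overlap, and Saa3 (chr7:46715627-46715926, minus strand) and Slc34a2 (chr5:53049103-53049402, plus strand) held 1 each.
BC053393: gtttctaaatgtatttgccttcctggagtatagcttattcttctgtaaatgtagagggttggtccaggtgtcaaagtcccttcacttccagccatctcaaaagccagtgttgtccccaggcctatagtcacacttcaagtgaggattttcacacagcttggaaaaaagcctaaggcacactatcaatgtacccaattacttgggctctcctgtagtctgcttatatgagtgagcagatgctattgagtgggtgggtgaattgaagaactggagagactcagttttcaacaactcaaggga
Timd2: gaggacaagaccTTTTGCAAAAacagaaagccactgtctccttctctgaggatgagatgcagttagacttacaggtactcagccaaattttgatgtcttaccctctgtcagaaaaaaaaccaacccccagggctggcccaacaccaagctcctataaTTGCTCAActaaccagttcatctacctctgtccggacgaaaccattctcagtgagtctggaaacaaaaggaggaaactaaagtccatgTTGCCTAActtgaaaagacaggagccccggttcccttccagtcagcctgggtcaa
Saa3: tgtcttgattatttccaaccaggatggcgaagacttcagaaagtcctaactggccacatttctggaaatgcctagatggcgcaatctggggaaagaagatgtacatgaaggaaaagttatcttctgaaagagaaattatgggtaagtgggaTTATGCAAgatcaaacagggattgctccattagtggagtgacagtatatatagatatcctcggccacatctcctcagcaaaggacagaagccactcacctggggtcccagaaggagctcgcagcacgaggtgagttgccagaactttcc
Slc34a2: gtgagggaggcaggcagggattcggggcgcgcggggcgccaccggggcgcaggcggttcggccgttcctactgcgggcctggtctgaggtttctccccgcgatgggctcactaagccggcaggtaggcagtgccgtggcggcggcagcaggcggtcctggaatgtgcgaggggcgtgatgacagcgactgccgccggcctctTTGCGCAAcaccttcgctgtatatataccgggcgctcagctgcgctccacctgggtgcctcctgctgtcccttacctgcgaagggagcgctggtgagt

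In all, 17 motifs were searched on both strands, chosen with the results known, and matches are descriptions of letters rather than of binding. The AP-1 letters TGANTCA stood in 6 of 33 windows (18.2%) and in 7.81% of all windows, in Aldh1a1, Mgst2, Mme, Pak6 and Rsad1. The TEAD letters GGAATG stood in 7 (21.2%, against 14.7%), and the GATA letters AGATAA in 4, against a share of 11.2% of all windows. Others were at or below their share of all windows: TATAAA in 3 (9.09%, against 13.6%), the FOXA letters TGTTTAC in 1 (3.03%, against 3.65%), the ETS letters GGAAGT in 5 (15.2%, against 23.8%), the nuclear receptor letters AGGTCA in 3 (9.09%, against 16.3%), the SOX letters ACAAT in 5 (15.2%, against 31%) and the CDX letters TTTATN in 11 (33.3%, against 39.9%). The POU letters ATTTGCAT stood in 1 window (3.03%, against 1.74%), and so did TTGCGCAA, the palindromic C/EBP site (3.03%, against 0.183%). TTGCGCAA is contained in TTGCNNAA, so both count the Slc34a2 match. No window held the HNF4 letters CAAAGTCCA or CAAAGGTCA, or the longer HNF1, DUX and NF-kappaB motifs, which stood in 0.475%, 0.478%, 0.00913%, 0.0335% and 0.155% of all windows. The windows held few CpG dinucleotides in 18 of 33 cases (54.55% with at most 5, against 43.56% of all windows).

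The depth of the libraries is not given in the sources used here. In single-exon genes, values rose in steps of 0.0204 to 0.0304 FPKM for a gene of 1 kb in 17 libraries and 0.0041 in D2 replicate 2, so a gene listed at 0 lay under that step. The D12 libraries differed from all others in the share of summed FPKM that came from mitochondrially encoded genes, which was 62.3% and 62.1%, against 52.3% and 51.4% at D10, 27.0% to 28.1% in riPSC and 0.437% to 1.90% at D0. Weighted by gene length, the share was 18.6% and 18.2% at D12 and 11.7% and 11.1% at D10. Rescaling every library to its remaining genes left 25 of the 39 genes over the thresholds. This rescaling lowered the D12 values, since the remaining genes summed to more FPKM at D12 than in any other group. The part of the mitochondrial share in the D12 levels was not tested. Replicates were closest from D6 on: the median absolute difference between replicates over all genes tested, on log2(FPKM + 1), was 0.09 to 0.14 from D6 to mESC and 0.28, 0.24 and 0.18 at D0, D2 and D4. Among marker lists of other cells, striated muscle genes summed to 2.91 to 3.06 FPKM at D12, neural markers to 4.53 to 5.11 and myeloid markers to 6.94 to 7.29. The 15 fibroblast markers summed to 864 to 883 FPKM at D12, 506 to 524 at D10 and 3818 to 4407 at D0, with 14 of them at a mean of at least 1 at D12, and their part in the D12 levels was not tested. Epithelial markers summed to 1312 to 1319 at D12 and 369 to 402 in riPSC. The 18 naive pluripotency markers summed to 1675 to 1708 FPKM at D12, 670.7 to 676 at D10 and 4870 to 5170 in riPSC. Pou5f1 and Sox2, which are not confined to the naive state, are among the 18. At D12 and at D10, 13 of the 18 had a mean of at least 1, and 1, Fgf4, was listed at 0 in both libraries.

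**Figure D1:**
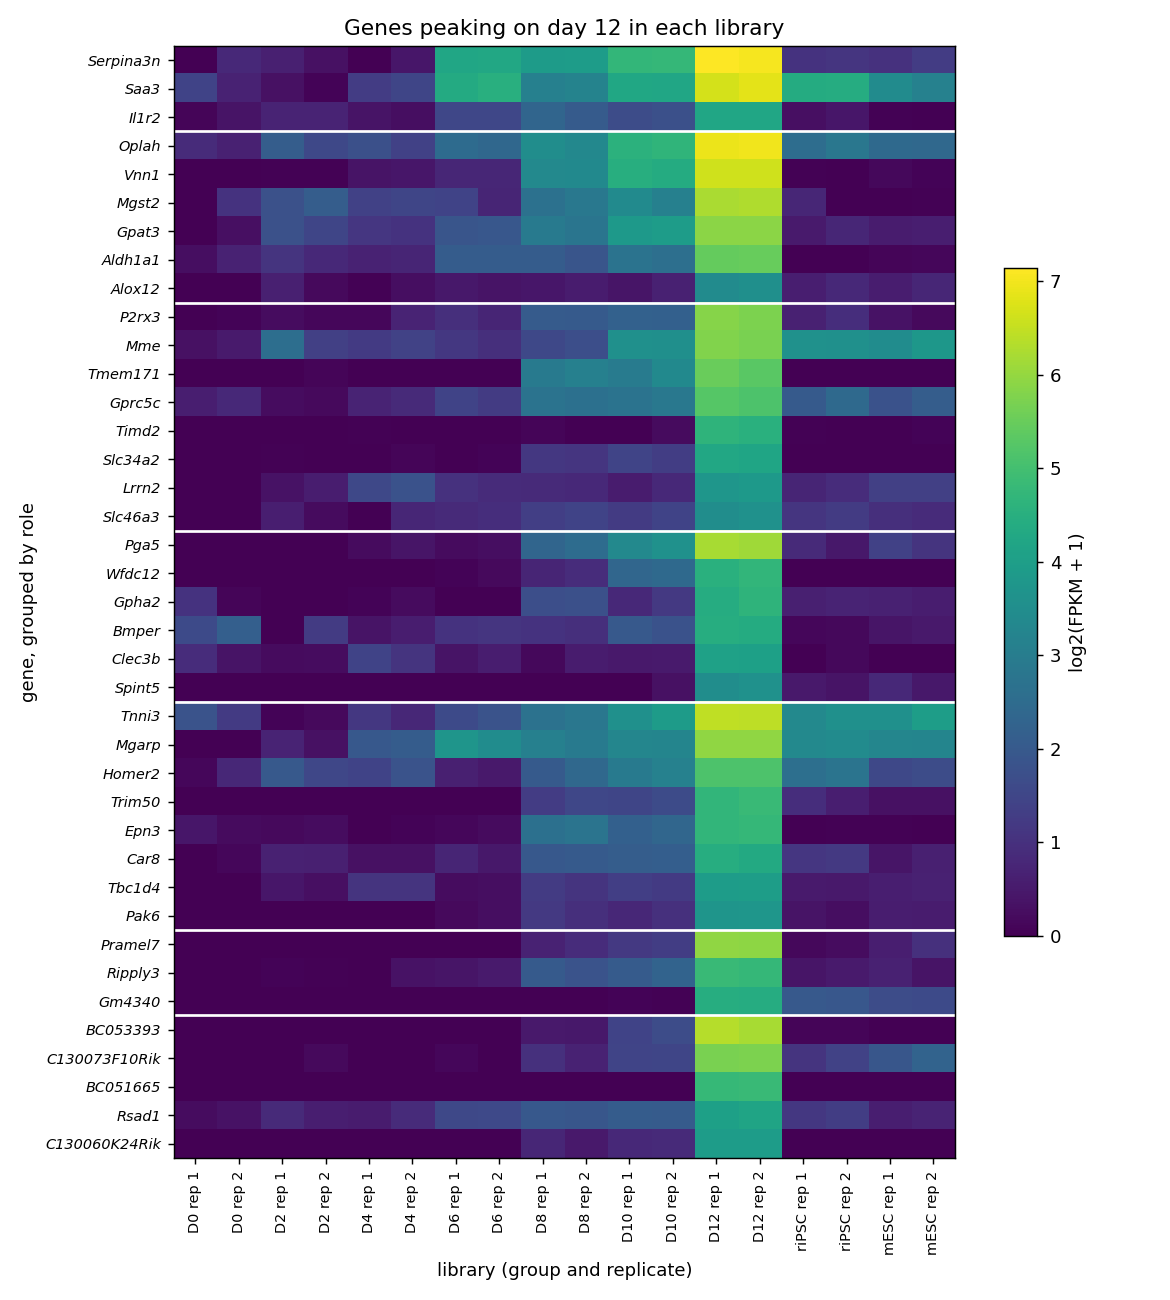
Level of each of the 39 genes (rows, grouped by role) in each of the 18 libraries (columns), as log2(FPKM + 1), with white lines between role groups. The 2 D12 columns hold the highest value of every row, and most rows are at 0 or close to it from D0 to D6.

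For all 39 genes the lower D12 library was above every library of the other groups; of all 16439 genes tested, 11.2% had both D12 libraries above the rest, and the rule itself fixes most of the count. D12 means ran from 10.4 (Alox12) to 135 FPKM (Serpina3n) with a median of 27.0. The median over the genes of their group mean was 0 at D0, 0.388 at D6, 2.29 at D8, 3.18 at D10, 0.556 in riPSC and 0.489 in mESC. The number of genes with a mean of at least 1 FPKM grew from 3 at D0 to 13 at D6, 27 at D8 and 30 at D10, and was 13 in riPSC and 12 in mESC. D10 was the next highest group for 22 genes, D8 for 5, mESC for 4, and D4, D6 and riPSC for 2 each. For Bmper it was D0, and BC051665, listed at 0 in every library outside D12, had no next highest group. The 2 D12 libraries differed by a median of 5.37% of their mean, and by at most 17.1% (Gpha2). The genes lay on 16 autosomes, 6 of them on chromosome 11, and their median exonic length was 2606 bases, against 4270 for 13432 protein-coding autosomal genes tested.

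Acute phase genes were among the highest at D12. Serpina3n, a secreted inhibitor of serine proteases, stood at 140.0 and 131 FPKM in the D12 libraries, 25.3 and 25.9 at D10, 14.1 and 14.3 at D8, 17.9 and 18.5 at D6, and at most 1.39 in the other 10 libraries. Saa3, a serum amyloid A protein that liver and macrophages secrete in inflammation, stood at 102 and 115 FPKM at D12. It was 18.2 and 17.9 at D10, 7.62 and 8.14 at D8, 19.5 and 21.6 at D6, and at most 1.79 in the 6 earlier libraries. Both genes thus had an earlier, lower maximum at D6, and no D12 library overlapped any other. Saa3 was also present in the pluripotent lines, at 20.2 and 20.5 FPKM in riPSC and 9.79 and 7.81 in mESC. Il1r2, a decoy receptor that binds interleukin 1 without signalling, stood at 17.6 and 17.7 FPKM at D12, 2.15 and 2.36 at D10 and 4.03 and 3.17 at D8.

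Enzymes of glutathione, lipid and retinoid metabolism formed a group of 6, and in 5 of them, all but Alox12, the days stood in the order D8, D10, D12 without overlap between libraries. This order held in 25 of the 39 genes. The rule fixes most of its last step, and its share among all genes tested was not counted, so the count does not set the 39 apart. Oplah, the 5-oxoprolinase that returns glutamate to glutathione synthesis, stood at 121 and 127 FPKM at D12, 22.9 and 24.7 at D10, 10.3 and 9.16 at D8 and 0.585 to 6.07 in the other 12 libraries. Vnn1, a membrane-anchored pantetheinase that releases cysteamine and vitamin B5, stood at 97.4 and 97.3 FPKM at D12, 21.2 and 19.9 at D10, 9.25 and 9.52 at D8 and at most 0.715 elsewhere. Mgst2, a microsomal glutathione transferase, stood at 74.9 and 77.1 FPKM at D12, 9.59 and 7.61 at D10 and at most 3.27 from D0 to D6. Mgst2 was the lowest of these 3 enzymes at D10. Gpat3, the acyltransferase that starts glycerolipid synthesis at the endoplasmic reticulum, stood at 58.7 and 58.4 FPKM at D12, 13.2 and 14.4 at D10 and 6.53 and 5.82 at D8. Aldh1a1, which makes retinoic acid from retinaldehyde, stood at 43.0 and 43.8 FPKM at D12, 5.54 and 5.15 at D10, 3.26 and 2.70 at D8 and 3.26 in both D6 libraries, and was listed at 0 in both riPSC libraries. Alox12, an arachidonate lipoxygenase, stood at 9.96 and 10.8 FPKM at D12, with a D12 mean nearest to the minimum of 10. It was at most 0.760 in the other 16 libraries, with means of 0.346 at D6, 0.403 at D8 and 0.445 at D10.

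Of 8 membrane proteins, 2 belonged to the brush border list fixed for the intestinal and kidney surface. Mme (neprilysin), a peptidase of that surface, stood at 54.2 and 51.1 FPKM at D12, 10.9 and 10.8 at D10, 11.2 and 10.9 in riPSC and 10.12 and 12.7 in mESC. Slc34a2, a sodium-dependent phosphate transporter of gut and lung, stood at 18.3 and 17.2 FPKM at D12, at a mean of 1.59 at D10, and was listed at 0 in all 4 libraries of riPSC and mESC. The Mme levels of both pluripotent lines overlapped or adjoined those of D10, while Slc34a2 was seen there in no library. P2rx3, an ATP-gated cation channel best known from sensory neurons, stood at 56.9 and 51.9 FPKM at D12 and 3.69 and 3.52 at D10. Tmem171, a membrane protein, stood at 44.9 and 39.1 FPKM at D12, 6.87 and 9.42 at D10 and 6.59 and 7.71 at D8. It was listed at 0 in 11 of the remaining 12 libraries. Gprc5c, an orphan receptor of a retinoic acid-inducible family, stood at 37.0 and 34.5 FPKM at D12, 5.57 and 6.31 at D10 and 3.07 and 4.39 in riPSC. Timd2, a receptor that takes up ferritin, had one of the sharpest patterns, with 24.1 and 22.3 FPKM at D12 and at most 0.154 in the other 16 libraries, 9 of which were listed at 0. Lrrn2 and Slc46a3, a leucine-rich repeat protein and a lysosomal solute carrier, had D12 means of 13.1 and 10.8 FPKM.

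Secreted proteins were proteases, their inhibitors and signalling components. Pga5, the pepsinogen of the stomach, stood at 72.5 and 68.3 FPKM at D12, 9.30 and 11.3 at D10, 3.99 and 4.79 at D8 and at most 1.59 elsewhere. Wfdc12, a whey acidic protein-type protease inhibitor, stood at 22.1 and 24.8 FPKM at D12, 4.15 and 4.38 at D10, and was listed at 0 in riPSC and mESC. Spint5, a Kunitz-type protease inhibitor gene, stood at 10.3 and 11.3 FPKM at D12 and at most 0.785 elsewhere. Bmper, an extracellular regulator that binds bone morphogenetic proteins, was the gene of this group with a D0 mean of more than 1 FPKM. It stood at 20.7 and 19.9 FPKM at D12, 2.06 and 3.48 at D0, 3.00 and 2.48 at D10 and 0.0971 and 0.121 in riPSC. Gpha2, an alpha subunit of a glycoprotein hormone, stood at 20.4 and 24.2 FPKM at D12, 2.26 and 2.32 at D8 and 0.754 and 1.26 at D10. Clec3b (tetranectin), a plasminogen-binding protein, stood at 15.8 and 15.7 FPKM at D12 and 1.72 and 1.09 at D4, its next highest group.

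Intracellular scaffold, signalling and trafficking proteins included genes named for muscle and nerve. Tnni3, the inhibitory troponin subunit of heart muscle, stood at 87.3 and 84.9 FPKM at D12, 11.03 and 14.1 at D10, 9.19 and 11.01 in riPSC and 11.1 and 14.6 in mESC. The striated muscle list (Tnnt2, Myh3, Des and 7 others) had 0 of 9 tested genes called at D12 against D10 by limma, and 1 with an unadjusted p under 0.05. Mgarp, a mitochondrial protein, stood at 61.5 and 61.6 FPKM at D12, 12.18 and 10.0 at D6, 8.64 and 8.55 at D10 and 9.28 and 9.93 in riPSC. Homer2, a scaffold of glutamate receptor synapses, stood at 34.5 and 34.2 FPKM at D12, 6.59 and 7.82 at D10, 5.15 and 5.71 in riPSC and 1.90 and 2.16 in mESC. These 3 genes were the ones of this group with levels of at least 5 FPKM in riPSC. Trim50, a ubiquitin ligase known from the stomach, stood at 24.9 and 27.6 FPKM at D12, 1.81 and 2.12 at D10, and was listed at 0 in all 8 libraries from D0 to D6. Epn3, an endocytic adaptor of the epsin family, stood at 25.1 and 26.1 FPKM at D12, 3.58 and 4.09 at D10 and 5.23 and 5.75 at D8. Car8, a carbonic anhydrase-related protein without enzyme activity, Tbc1d4, a Rab GTPase-activating protein of insulin signalling, and Pak6, a p21-activated kinase, had D12 means of 19.96, 14.6 and 12.3 FPKM.

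Genes of the early embryo and of transcription were few. Pramel7, a PRAME-family protein of the inner cell mass, stood at 61.2 and 59.5 FPKM at D12, 1.26 and 1.45 at D10, 0.103 and 0.188 in riPSC and 0.524 and 0.977 in mESC. It was listed at 0 in all 8 libraries from D0 to D6. Ripply3, a corepressor that binds T-box factors, stood at 27.7 and 26.3 FPKM at D12 and 3.14 and 3.83 at D10. Gm4340, a multicopy gene of the 2-cell-like list, stood at 20.7 and 20.4 FPKM at D12, 0.0451 and 0.0266 at D10, 2.96 and 2.85 in riPSC and 2.15 and 2.01 in mESC. Its level is uncertain, since 96.8% of its 75-base windows also occur in transcripts of 20 other genes, and how such reads were divided is not stated.

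Among 5 genes to which no role was assigned, BC051665 was listed at 0 in all 16 libraries outside D12 and stood at 26.6 and 27.5 FPKM in the D12 libraries. C130073F10Rik stood at 50.6 and 52.3 FPKM at D12, 1.75 and 1.81 at D10 and 2.78 and 3.85 in mESC. BC053393 stood at 79.9 and 72.4 FPKM at D12, 1.697 and 2.17 at D10, 0.409 and 0.388 at D8, and was listed at 0 in all 8 libraries up to D6. C130060K24Rik stood at 14.5 FPKM in both D12 libraries and was listed at 0 in 10 others, and Rsad1, a radical SAM-type protein gene, stood at 15.7 and 17.0. The ratio of the rule, which compares D12 with the next highest group, was at least 10 for 6 genes: BC051665 (28.1), BC053393 (26.3), Pramel7 (26.02), Timd2 (22.5), C130073F10Rik (12.15) and P2rx3 (12.04). Its median was 6.23.

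At the ratio of 4, the genes just inside were Gpat3 (4.02), Il1r2 (4.05) and Epn3 (4.098), and those just outside were Pdzd3 (3.89), Pgam2 (3.88) and Tff3 (3.84). Tff3 had a D12 mean of 12.4 FPKM and 2.49 in D8, its next highest group. At the D12 minimum, Alox12 (10.4 FPKM) and Slc46a3 (10.8) were inside, and Meltf (9.97) and Cym (9.55) were outside. Cym, the chymosin gene of another stomach protease, had a ratio of 10.0 and missed by its level.

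**Figure D2:**
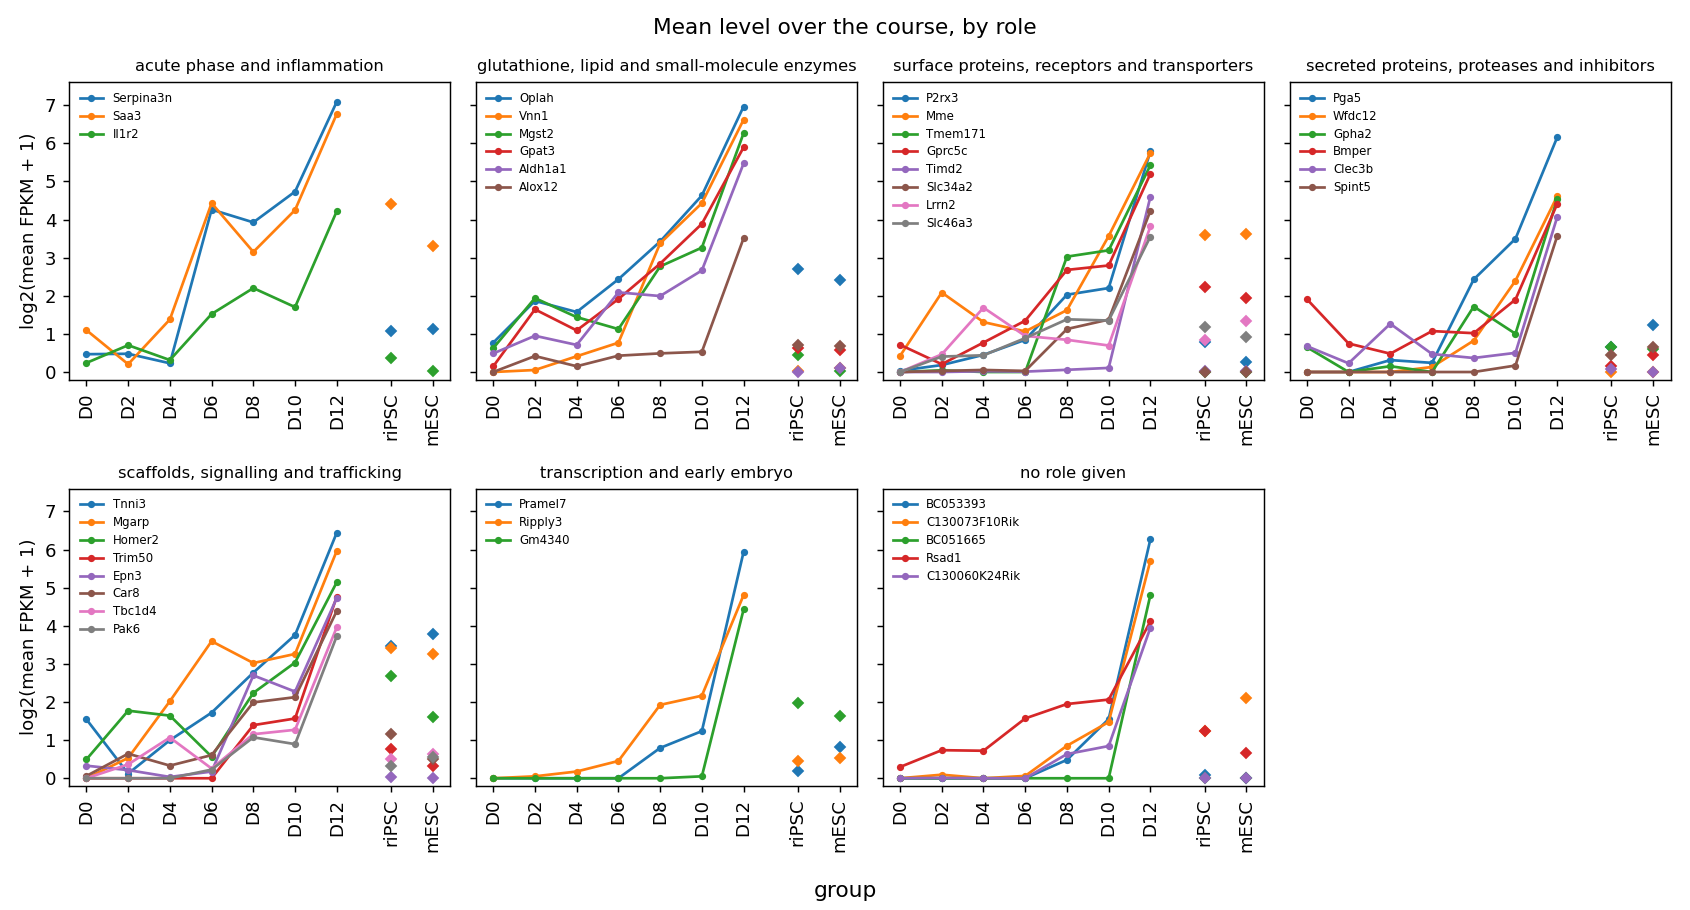
Group means (points) of the 39 genes in 7 panels by role, as log2 of the mean FPKM plus 1, joined by lines from D0 to D12, with riPSC and mESC as separate diamonds. Many lines leave 0 between D6 and D8, and each line is highest at D12; Serpina3n, Saa3 and Mgarp have an earlier rise at D6.

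Changes before D12 were tested in comparisons that do not hold the D12 libraries, with limma on log2(FPKM + 1) over all 16439 genes that had at least 1 FPKM in at least 2 libraries. A gene was called at a Benjamini-Hochberg adjusted p under 0.05 with at least a 2-fold change on that scale. All 39 genes passed the filter, 33 of them without the D12 libraries. BC051665, Timd2, C130060K24Rik, Pak6, Spint5 and Alox12 passed only through D12. These 6 stay in the counts and medians below, and in the main fit they were called in none of these comparisons. The rule capped the level of every gene in all of these groups, so a gene that was already high could not be among the 39.

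From D6 to D8, 14 of the 39 genes rose, against 15.1% of all genes tested, and 1 fell, against 11.3%. The median log2 fold change was 0.78 over the 39 genes and 0.08 over all genes tested. The largest changes were in Tmem171, from 0 in both D6 libraries to a mean of 7.15 FPKM at D8 (log2 fold change 3.02 ± 0.13 SE, limma adjusted p = 1.47e-09), and in Vnn1, from 0.704 to 9.39 FPKM (2.61 ± 0.08, limma adjusted p = 1.18e-10). Epn3 rose by 2.52, Pga5 by 2.19, Gpha2 by 1.72, Mgst2 by 1.68, Homer2 by 1.66 and Ripply3 by 1.47 on the log2 scale. Trim50, Car8, Gprc5c, P2rx3, Slc34a2 and Tnni3 rose by 1.05 to 1.39; Tnni3 was not called under 3 other scalings, nor P2rx3 and Slc34a2 under quantile normalization. Thus receptors, secreted proteins, enzymes and scaffolds were all among the genes that rose. Saa3 was the gene that fell, from 20.6 to 7.88 FPKM (log2 fold change -1.28 ± 0.20, limma adjusted p = 1.56e-04). With a pseudocount of 5 in place of 1, 3 genes were called, and with 0.1, 23.

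From D8 to D10, 8 of the 39 genes rose, against 0.426% of all genes tested, and 0 fell, against 2.43%. The median log2 fold change was 0.22, against -0.01 over all genes tested. Mme rose most, from 2.08 to 10.8 FPKM (log2 fold change 1.94 ± 0.28 SE, limma adjusted p = 7.59e-04), followed by Wfdc12, from 0.771 to 4.27 FPKM (1.57 ± 0.09, limma adjusted p = 1.06e-06), and Oplah, from 9.74 to 23.8 FPKM (1.21 ± 0.18, limma adjusted p = 8.62e-04). Saa3, Pga5, BC053393, Vnn1 and Gpat3 rose by 1.05 to 1.10 on the log2 scale. Of the 6 enzymes described above, Oplah, Vnn1 and Gpat3 were called in this step. By limma's unadjusted p under 0.05 alone, 17 of the 39 genes were higher and 3 lower, and the share of all genes at this cut was not counted. Both steps share the D8 libraries, and Pga5 and Vnn1 were called in each of them, Pga5 at 2.19 and 1.07 and Vnn1 at 2.61 and 1.05. Without D10 replicate 2, 5 genes were called, since Pga5, Gpat3 and BC053393 fell under the fold threshold, and with a pseudocount of 5, 1 was.

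In riPSC against D0, the start and the end of the course, 11 of the 39 genes were higher, against 40.1% of all genes tested, and 1 was lower, against 13%. The median log2 fold change of the 39 was 0.49, against 0.62 over all genes tested. Mgarp was higher by 3.41, from listed at 0 in both D0 libraries to 9.61 FPKM (limma adjusted p = 2.58e-10), Saa3 by 3.37 and Mme by 3.17. Homer2, Gm4340, Tnni3, Oplah, Gprc5c, C130073F10Rik, Slc46a3 and Car8 were higher by 1.09 to 2.23 on the log2 scale. Bmper was lower, at 2.77 FPKM in D0 and 0.109 in riPSC (log2 fold change -1.74 ± 0.30 SE, limma adjusted p = 1.46e-04). These counts moved with the scaling: quantile normalization gave 5 higher and 4 lower, removal of the trend with gene length 8 and 2, and a pseudocount of 0.1 gave 24 and 4.

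Between the pluripotent lines, 2 of the 39 genes were called. Both were higher in riPSC than in mESC, against 1.84% of all genes tested, and 0 were lower, against 1.2%. With limma's unadjusted p under 0.05 alone, 8 were higher and 5 lower, and the share of all genes at this cut was not counted. Saa3 had means of 20.4 and 8.80 FPKM (log2 fold change 1.13 ± 0.20 SE, limma adjusted p = 2.51e-03), and Homer2 5.43 and 2.03 FPKM (1.09 ± 0.23, limma adjusted p = 7.17e-03). Neither call held with a pseudocount of 0.1, where 6 other genes were called, or with 5, where 0 were. Saa3 was not called without mESC replicate 2, and Homer2 not without riPSC replicate 2 or mESC replicate 1. The median level relative to D12 was 1.64% in riPSC and 1.78% in mESC. The highest residual levels were those of Mme, at 20.98% of its D12 mean in riPSC and 21.6% in mESC. In riPSC, Saa3 stood at 18.8%, Homer2 at 15.8%, Mgarp at 15.6%, Gm4340 at 14.2% and Tnni3 at 11.7%. At 0 in both riPSC libraries were 6 genes, and 7 were at 0 in both mESC libraries.

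**Figure D3:**
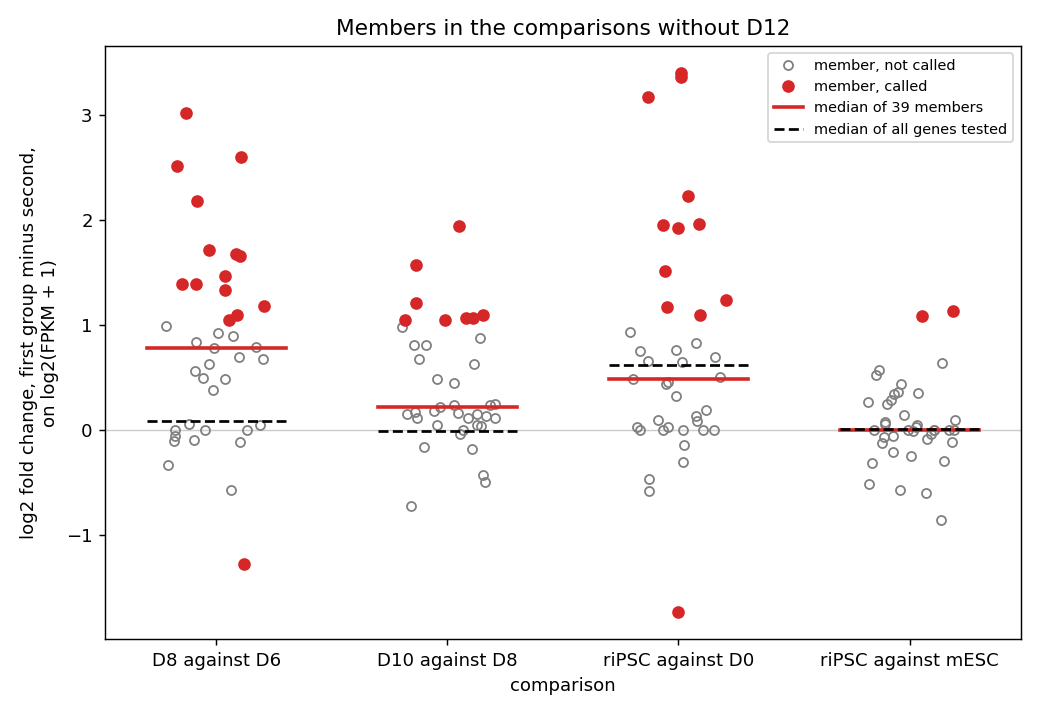
Log2 fold change on log2(FPKM + 1) of each of the 39 genes in the 4 comparisons without D12, filled where called, with the median of the 39 genes (solid line) and of all genes tested (dashed line). The medians are 0.78 and 0.08 for D8 against D6, 0.22 and -0.01 for D10 against D8, and 0.49 and 0.62 for riPSC against D0.

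Of the 39 genes, 4 pairs lay within 1000000 bases of each other, and on chromosome 11 the pattern covered a row of neighbours (GENCODE M21, GRCm38). BC053393 (chr11:46571536-46589232) and Timd2 (chr11:46668960-46707061) were separated by 79728 bases, and the coding gene between them was Dppa1, a gene of early embryos. Dppa1 stood at 74.97 and 63.0 FPKM in the D12 libraries and at 0.338 and 0.0914 at D10. On the far side of Timd2 lay Havcr1 (chr11:46735080-46779578), a phosphatidylserine receptor of injured kidney tubules, with 70.4 and 66.1 FPKM at D12 and 0.750 and 0.499 at D10. Both meet the thresholds and are left out only by name. Gm12169, the coding gene before BC053393, stood at 6.95 and 7.81 FPKM at D12 and 0.252 and 0 at D10, and missed the minimum of 10. In all 5 neighbours, the D12 libraries were above every other library and the riPSC libraries were at most 0.0749 FPKM. Except in Gm12169, which did not meet the rule, the rule fixes most of this D12 rank, and 11.2% of all genes tested held it. Havcr2, the next coding gene on that side, was listed at 0 at D10, D12 and in riPSC. Timd2 shares 1.18% of its 75-base windows with Havcr1, and BC053393 shares none with any gene.

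**Figure D4:**
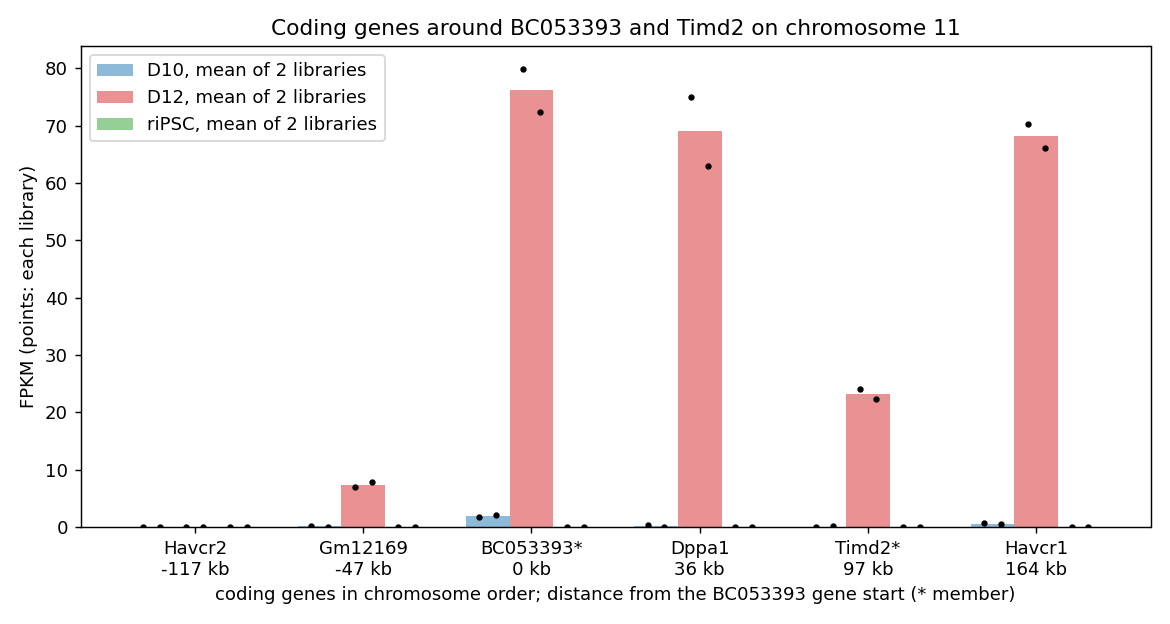
FPKM of 6 consecutive coding genes around BC053393 and Timd2 on chromosome 11 at D10, D12 and in riPSC, as bars of the mean of 2 libraries with a point for each library; the distance from the start of BC053393 is given under each gene. The 5 genes from Gm12169 to Havcr1 have D12 means of 7.38 to 76.2 FPKM, and Havcr2 is at 0.

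The other pairs were less uniform. Epn3 (chr11:94489599-94499974) and Rsad1 (chr11:94539798-94549255) were 39824 bases apart, and Mycbpap between them stood at 6.89 and 5.76 FPKM at D12 and 1.25 and 1.41 at D10. Acsf2, the coding gene beyond Rsad1, stood at 94.1 and 96.6 FPKM at D12 and 41.8 and 44.5 at D10. Mgarp and Mgst2 on chromosome 3 were 263622 bases apart, and the 4 coding genes between them, Ndufc1, Naa15, Rab33b and Setd7, had D12 means below 1.5 times those of D10. Wfdc12 and Spint5 lay 524697 bases apart in a cluster of protease inhibitor genes on chromosome 2, many of which were listed at 0 at both D10 and D12.

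Exons of 7 of the 39 genes overlap another gene in the annotation, 6 of them on the opposite strand (Oplah, Gpat3, P2rx3, Homer2, Wfdc12 and Gpha2), and the use of strand in counting is not stated. P2rx3 overlaps Ssrp1 by 51 exonic bases of 2789, and Ssrp1 had means of 64.3 FPKM at D12 and 83.1 at D10. Tnni3 overlaps Dnaaf3 on the same strand by 86 bases of 2063, and Dnaaf3 had means of 3.10 FPKM at D12 and 1.66 at D10. Gpha2 overlaps Ppp2r5b by 4 bases of 770, and Ppp2r5b had means of 38.6 FPKM at D12 and 9.89 at D10. Oplah overlaps Exosc4 by 385 bases of 5837, and Exosc4 had means of 18.7 FPKM at D12 and 13.5 at D10. The other overlapping genes had D12 means of at most 1.36 FPKM, and the part of these overlaps in the levels was not tested. Of the 39 genes, 31 shared no 75-base window with another gene.

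Gene lists, chosen with earlier results of these data known, give the setting of the 39 genes at D12. Their shares of called genes are thus descriptions and do not set the lists apart from all genes. The lists held 6 genes that met both thresholds of the rule: Gm4340, Zscan4f, Mme, Slc34a2, Pramel7 and Aldh1a1. These are left out of the counts of called genes below. Against D10, 58 of the other 288 listed genes tested were higher and 36 lower, where 6.01% and 4.68% of all genes tested were. After rescaling without mitochondrial genes, which moved the median of all genes tested from -0.06 to -0.24, the split was 41 and 51. In the 2-cell-like list 11 of 13 genes were higher and 0 lower. The median log2 fold change was 1.87, against -0.06 over all genes tested. Of all 35 genes of the list, 17 had a mean of at least 1 FPKM at D12, 3 at D10 and 5 in riPSC. The filter, at least 1 FPKM in at least 2 libraries, can thus be passed through D12 alone, which favours a call of higher. How many genes of any list did so was not counted. Zscan4e rose from 0.0109 to 7.02 ± 0.908 FPKM (SD, n = 2 libraries; log2 fold change 2.98, limma adjusted p = 5.72e-10) and Zscan4c by 2.85. Zscan4f, which met the thresholds, had means of 0.0129 and 12.03 FPKM; these are near-identical copies, so the division of reads among them is uncertain. In the Pramel family, to which Pramel7 belongs, 3 of the 5 others rose, among them Pramel5, listed at 0 at D10 and at 1.94 FPKM at D12, and Pramef12, from 1.47 to 4.81 FPKM. Of 18 genes of the naive pluripotency list 8 rose and 0 fell. The 8 included Pou5f1, which is not confined to the naive state, from 125 to 543 FPKM. Zfp42 rose from 3.08 to 22.2 and Klf2 from 2.39 to 11.6. Of 18 germline genes 7 rose, including Rpl10l, Fkbp6 and Asz1, with log2 fold changes of 2.76, 2.03 and 1.92, and 0 fell; with rescaling without mitochondrial genes 4 rose. Under each of 3 other scalings no gene of these 4 lists was called lower by limma. On the values as deposited, by limma's unadjusted p under 0.05 alone, 0 genes of the 2-cell-like, Pramel and germline lists were lower, and 3 naive pluripotency genes were. After rescaling without mitochondrial genes, 1 Pramel gene and 4 naive pluripotency genes were lower by that cut.

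Endoderm lists moved both ways between D10 and D12. Of 18 brush border genes other than Mme and Slc34a2, 4 were higher and 4 were lower. Tff3, a trefoil peptide of gut mucus, rose from 0.966 to 12.4 FPKM, while the peptidases Dpp4 and Anpep fell, from 25.5 to 2.54 and from 72.3 to 12.4 FPKM. Among secreted and uptake proteins of visceral endoderm 1 of 17 rose, Fabp2, and 6 fell, including S100g, a calcium-binding protein, from 3626 ± 71.8 to 1191 ± 14.0 FPKM (SD, n = 2 libraries). Among visceral endoderm regulators 1 of 13 rose, Eomes, from 1.94 to 8.08 FPKM, and 4 fell, including Cited1, from 270 to 70.9, and Hhex, from 2.09 to 0.364; with median-of-ratios scaling 2 fell. In parietal endoderm 5 of 12 rose, among them the laminin gene Lamb1, from 294 to 662 FPKM. With rescaling without mitochondrial genes, however, 0 rose and 2 fell. This list is not particular to endoderm here. It summed to 698 to 847 FPKM in the D0 fibroblasts, where 10 of its 12 genes had a mean of at least 1. Of 13 trophoblast genes 2 rose, among them Gata3, by 2.74 on the log2 scale, and 1 fell, with a median log2 fold change of -0.23; 3 other scalings gave 1 or 2 higher and 1 or 2 lower. Of 11 nuclear receptors 1 rose, Nr5a2, by 2.74 on the log2 scale, and 0 fell, with a median of 0.14. Of 12 retinoic acid response genes other than Aldh1a1, 2 rose, Rarb and Rdh10, and 1 fell, with a median of -0.51. With rescaling without mitochondrial genes 1 rose, Rdh10 no longer being called, and 4 fell; quantile normalization gave 2 lower and median-of-ratios scaling 0.

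Interferon-stimulated genes were mostly lower at D12 than at D10, and stress genes moved both ways. Of 17 interferon-stimulated genes 0 rose and 11 fell, with a median log2 fold change of -1.03, including Oasl2, from 34.8 to 5.52 FPKM, Usp18, from 8.50 to 1.31, and Bst2, from 217 to 71.8. In 3 other scalings 7 to 12 fell and 0 rose, and by limma's unadjusted p under 0.05 alone 16 were lower and 0 higher. Of 16 genes of the integrated stress response, 4 rose and 4 fell: Nupr1 rose from 6.74 to 39.7 FPKM and Trib3 from 1.09 to 5.18, and Phgdh, an enzyme of serine synthesis, fell from 46.1 to 11.1. In coagulation and complement genes, cholesterol synthesis genes and endothelial markers, 0 of 11, 15 and 7 tested genes were called by limma, and 6, 1 and 2 had an unadjusted p under 0.05; with quantile normalization 1 coagulation and complement gene was called higher.

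Against riPSC, 107 of the 288 listed genes were higher and 75 lower at D12, where 16.7% and 19.8% of all genes tested were; rescaling without mitochondrial genes gave 90 and 93. Visceral endoderm regulators were higher in 11 of 13 genes and lower in 2. Among the higher were Sox17 (106 ± 20.2 FPKM at D12, 0.446 ± 0.228 in riPSC, SD, n = 2 libraries), Gata4 (120.4 and 1.08) and Gata6 (86.1 and 0.565). Epithelial markers were higher in 13 of 18, among them the keratins Krt8 (284 and 2.70 FPKM) and Krt18 (138 and 2.37), and lower in 0; with rescaling without mitochondrial genes 11 were higher and 2 lower. Naive pluripotency genes were lower in 12 of 18 and higher in 0, among them Nanog (1.76 and 274 FPKM), Tcl1 (0.270 and 75.6) and Fgf4, listed at 0 at D12 and at 105 FPKM in riPSC; median-of-ratios scaling and quantile normalization gave 1 higher. The 2-cell-like list was higher in 9 of 13 and lower in 3, and genes that passed the filter through D12 alone favour this count too. Its summed level over all 35 genes, Gm4340 and Zscan4f included, was 96.6 to 103 FPKM at D12 and 87.0 to 93.9 in riPSC. The rule chose both genes for their D12 level, and Gm4340 alone had means of 20.5 FPKM at D12 and 2.91 in riPSC. The sums thus give no order of these groups. At D12 17 of these 35 genes, Gm4340 and Zscan4f among them, had a mean of at least 1 FPKM, and in riPSC 5 did.

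**Figure D5:**
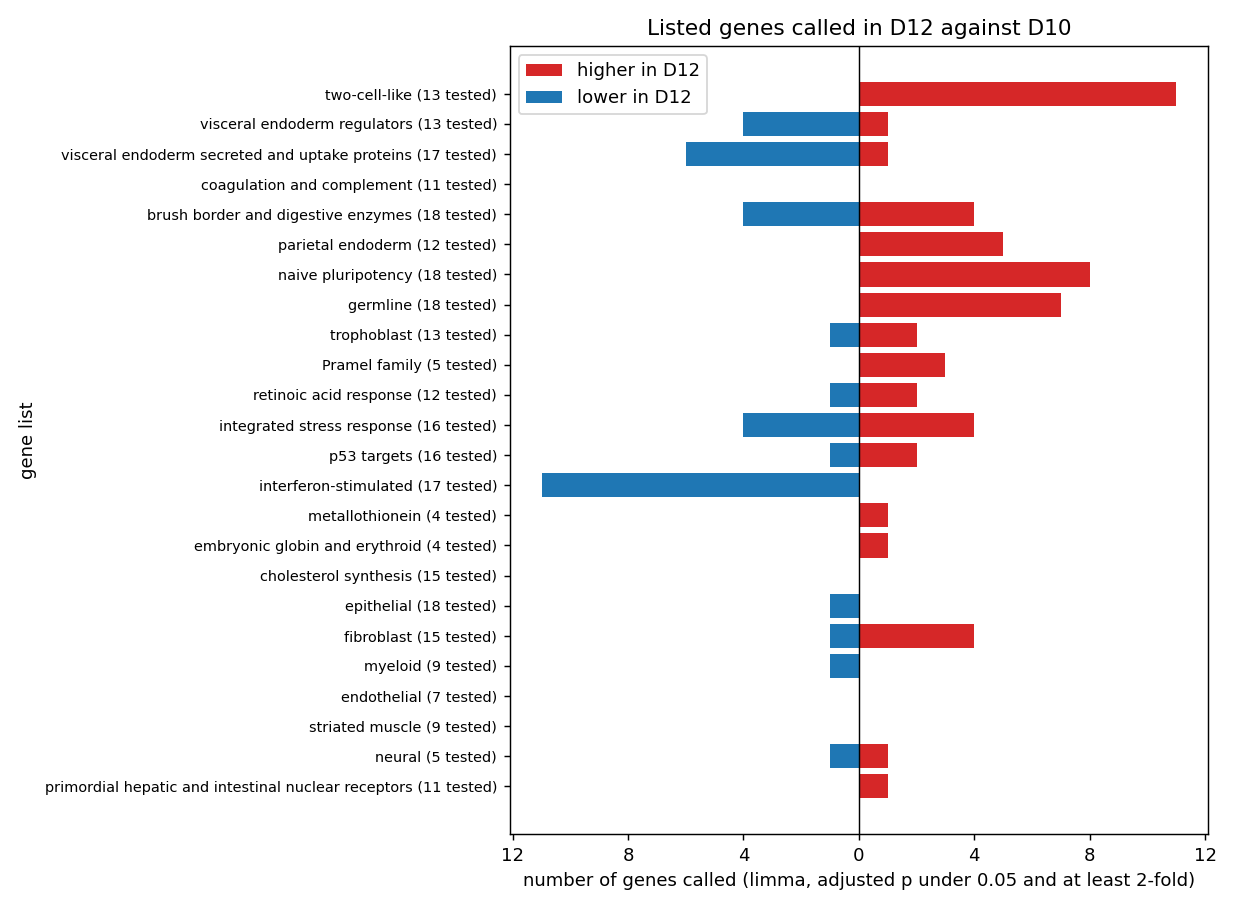
Number of genes called higher (right) and lower (left) at D12 against D10 in each fixed list, with the number tested in parentheses and without the 6 listed genes that met the thresholds of the rule. The 2-cell-like list has 11 higher and 0 lower, and the interferon-stimulated list has 0 higher and 11 lower. Genes that passed the filter only through D12 were not taken out.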

How the data were processed

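Gene levels were measured by RNA sequencing in 18 libraries. Groups and replicate numbers came from sample titles. Per the submitters' processing notes, fastp 0.20.1, HISAT2 2.2.1, StringTie 2.0 and mm10 were used; their settings and the annotation release are not given in the sources used here. The deposited values are in FPKM, a unit read from the values, since the labels do not state it: column sums are unequal and reach over 1000000, which TPM cannot.

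Symbols, coordinates and lengths came from GENCODE M21 (260 of 55401 identifiers had no entry). limma 3.58.1 in R 4.3.3 fitted log2(FPKM + 1) with a mean for each group, using all 18 libraries together and leaving 9 residual degrees of freedom, and two-sided p-values were adjusted by the Benjamini-Hochberg method in each comparison. A fold change on this scale understates the change of low genes. The 39 genes, the 24 lists, roles and motifs were chosen with earlier results of these data known. Named by rule were the 20 highest genes at D12, the 10 with the largest ratio, members of lists, called genes (up to 8 per comparison and direction), neighbours and, of other listed genes, up to 3 called per list; further members are named by role, and 1 called gene that the rule takes is not reported here. The fit was tested on simulated data, with changes placed only in genes of higher mean level than most of the 39. That test does not cover their low levels. Alternatives were pseudocounts, filters, scalings, other fits, thresholds of the rule and left-out replicates; a fit without D0, D2 and D4 was chosen after seeing the data.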

Additional observations from a re-analysis of the deposited data

How the results depend on the processing

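The number of genes that met the rule, 39, moved to 16 with a constant of 5 in place of 1, to 71 and 20 with ratios of 3 and 6, to 63 with a D12 minimum of 5, and to 25 with rescaling without mitochondrial genes, all 25 of them among the 39. Without 1 D12 library it was 39 to 41, and replicate 1 or 2 of every group alone gave 39 and 37, of which 36 and 35 were among the 39. Pseudocounts of 0.1 and 5 and no fold threshold moved the called genes from 15 to 23, 3 and 27 (D8 against D6), from 12 to 28, 4 and 27 (riPSC against D0) and from 2 to 6, 0 and 10 (riPSC against mESC, with 1 under quantile normalization). A pseudocount of 5 and no fold threshold moved them from 8 to 1 and 16 (D10 against D8) and from 100 to 40 and 167 (listed genes, D12 against D10), and a pseudocount of 5 from 188 to 117 (listed genes, D12 against riPSC). Leaving out 1 library gave 15, 5 to 9, 12 to 13, 1 to 2, 92 to 98 and 184 to 188 in the same 6 comparisons (in the order D8 against D6, D10 against D8, riPSC against D0, riPSC against mESC, D12 against D10, D12 against riPSC). The cause of these moves was not tested. Of the single genes named, 1141 values under alternatives kept direction and call, 72 kept direction alone, and 0 reversed. The fit without D0, D2 and D4, chosen after seeing the data, gave 15, 8, 2, 100 and 189 in the 5 comparisons without D0. The counts of 100 and 188 hold 6 genes each that met the thresholds of the rule; without them, also chosen after seeing the data, they were 94 and 182.

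Replicate numbers did not pair the libraries: the correlation of replicate deviations between the groups compared was -0.061 to 0.154. With the replicate number as a block, the counts were 15, 8, 12, 2, 100 and 188, as without it.

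Depth limits the low levels: a gene of 1 kb listed at 0 may have had up to 1 counting step, 0.0204 to 0.0304 FPKM in 17 libraries. With 2 libraries per group, 1 fit over all groups sets the spread of each, and a lone library in a left-out fit is assumed to vary like the other groups.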
